A study of Mus musculus with 18 samples.

Results

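Cells answer low oxygen through HIF-1, a transcription factor, and answer glucose through the MondoA and ChREBP factors, and 10 genes of these responses were followed here in mouse stem cells exposed to Δ9-tetrahydrocannabinol (Δ9-THC), the main psychoactive compound of cannabis. They comprised Hif1a, the oxygen-regulated subunit of HIF-1; Egln1 and Egln3, which encode the prolyl hydroxylases PHD2 and PHD3; the HIF target genes Adm, Vegfa, Bnip3, Ankrd37 and Ndrg1; and the glucose-responsive genes Txnip and Arrdc4. The 10 were chosen by name from the 14411 genes listed in either of 2 expression tables, with their levels and THC responses in these tables already known, so those values are a description. In the table of embryonic stem cells (ESCs) 9 of the 10 had a row, since Adm was not listed there, and in the table of epiblast-like cells (EpiLCs) 10 of 10 had a row.

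Poly(A) RNA was sequenced from ESCs, a culture model of the naive epiblast, and from EpiLCs, into which ESCs are converted with activin A and basic fibroblast growth factor. Each cell type was either exposed to 100 nM Δ9-THC or mock-exposed to the vehicle, ethanol, with 3 biological replicates in each of the 4 groups. By the study's account exposure was continuous, so that THC EpiLCs came from ESCs already kept in Δ9-THC, and the EpiLC values do not separate exposure at that stage from exposure before it. All 12 libraries derive from reporter ESCs that carry Blimp1::mVenus and Stella::ECFP and are grown in 2i and leukemia inhibitory factor, the labels do not name the clone behind each library, and vehicle and THC cells share these features. The study also made primordial germ cell-like cells, whose 6 samples were not analysed here. No library was grown at a stated low oxygen tension, so the values are those of routine culture.

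As background, when oxygen is present the PHD enzymes hydroxylate HIF-1α, the VHL complex then marks it for degradation, and little HIF-1 reaches the DNA. When oxygen falls, HIF-1α is stabilised mainly as a protein and pairs with ARNT on sites with the core ACGTG or GCGTG, and many of its targets shift cells towards glycolysis. EGLN1 and EGLN3 transcripts are themselves HIF targets and form a negative feedback. MondoA and ChREBP respond to glucose-6-phosphate and bind paired E-box-like sequences called carbohydrate response elements. TXNIP, an arrestin-domain protein, binds thioredoxin and promotes the internalisation of glucose transporters, and ARRDC4 is its close relative.

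The promoter sequences were read from RefSeq (GRCm38.p6), which held a start region for 9 of the 10 genes and none for Ndrg1 in the table used. The Txnip stretch is shown whole because Txnip had the largest difference with Δ9-THC in EpiLCs. It covers the 250 bases before the start on the + strand, chr3:96557707-96557956, and the capitals mark the match to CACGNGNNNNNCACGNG, in which N is any base, at 85 to 69 bases before the start:
Txnip: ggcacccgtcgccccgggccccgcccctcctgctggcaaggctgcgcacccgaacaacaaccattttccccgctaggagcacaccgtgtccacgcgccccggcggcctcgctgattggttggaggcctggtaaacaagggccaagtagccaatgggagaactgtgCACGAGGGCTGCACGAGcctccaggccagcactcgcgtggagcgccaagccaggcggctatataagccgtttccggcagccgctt
On either strand this pattern was present in 0.0457% of all 32851 such 250-base windows (15 windows). Among the 9 genes with a window it was found in 1, Txnip. The Arrdc4 window did not hold it and held the single E-box CACGTG, which 6.02% of all windows hold. Paired elements of another form were not searched, so the share and the absence in Arrdc4 hold for this pattern only.

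The next stretches cover 4 of the 5 genes that varied together between ESC libraries, as described below, Ndrg1 having no start region. Arrdc4 is shown because it is set beside Txnip. The Egln1 stretch lies partly within the first exon of another annotation, GENCODE M21. The Ankrd37 stretch lies wholly inside the gene as that annotation places it, not before its start. Each is 30 bases read 5′ to 3′ on the gene's own strand, here the minus strand in every case, with ACGTG or GCGTG on either strand in capitals, so that a CACGTG counts as ACGTG on both strands:
Bnip3, chr7:138909597-138909626: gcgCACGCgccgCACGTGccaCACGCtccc
Egln1, chr8:124949305-124949334: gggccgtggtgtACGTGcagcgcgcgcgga
Egln3, chr12:54204086-54204115: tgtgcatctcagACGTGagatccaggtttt
Ankrd37, chr8:45999985-46000014: ttcactgcgCACGCGTGctgcggccgcctg
Arrdc4, chr7:68749414-68749443: aaaggtcctgtgCACGTGcactatggtgtc
ACGTG or GCGTG on either strand occurred in the 250-base windows of 9 of the 9 genes, counting both windows of Vegfa, against 38.6% of all windows. ACGTG alone occurred in 7 of the 9 genes against 16.6% of windows, and GCGTG alone in 7 of the 9 against 28.2%. The matching windows of Hif1a and Vegfa also lie inside these genes as GENCODE M21 places them. The matches in all windows describe the letters only and show no binding.

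The library totals ranged from 23427551 to 32096698 counts, and the 10 genes held between 71 and 6025 counts in a library. Levels are given as CPM, counts per 1000000 counts of the library, scaled for composition with the TMM method over the 12 libraries. The labels fitted the naive and formative markers. The 8 naive pluripotency genes tested summed to 3488 to 3669 CPM in vehicle ESCs and to 125 to 150 CPM in vehicle EpiLCs. All 5 formative or primed genes listed in both tables were higher in EpiLCs, and the 6-gene sum reached 1704 to 2039 CPM in vehicle EpiLCs. Of the markers set as shared by both cell types, Pou5f1 overlapped between them in vehicle, and Sox2 was 4.09-fold lower in EpiLCs. Markers of primitive endoderm, mesoderm, neural cells and fibroblasts summed to at most 20.96 CPM per list in any library, and the trophoblast markers Cdx2 and Elf5 had no row. Transcript levels in such bulk samples cannot tell fewer expressing cells from less RNA per cell. The counts had been adjusted by the authors for batches that the sources used here do not assign to libraries, so no value could be recomputed within a batch.

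**Figure D1:**
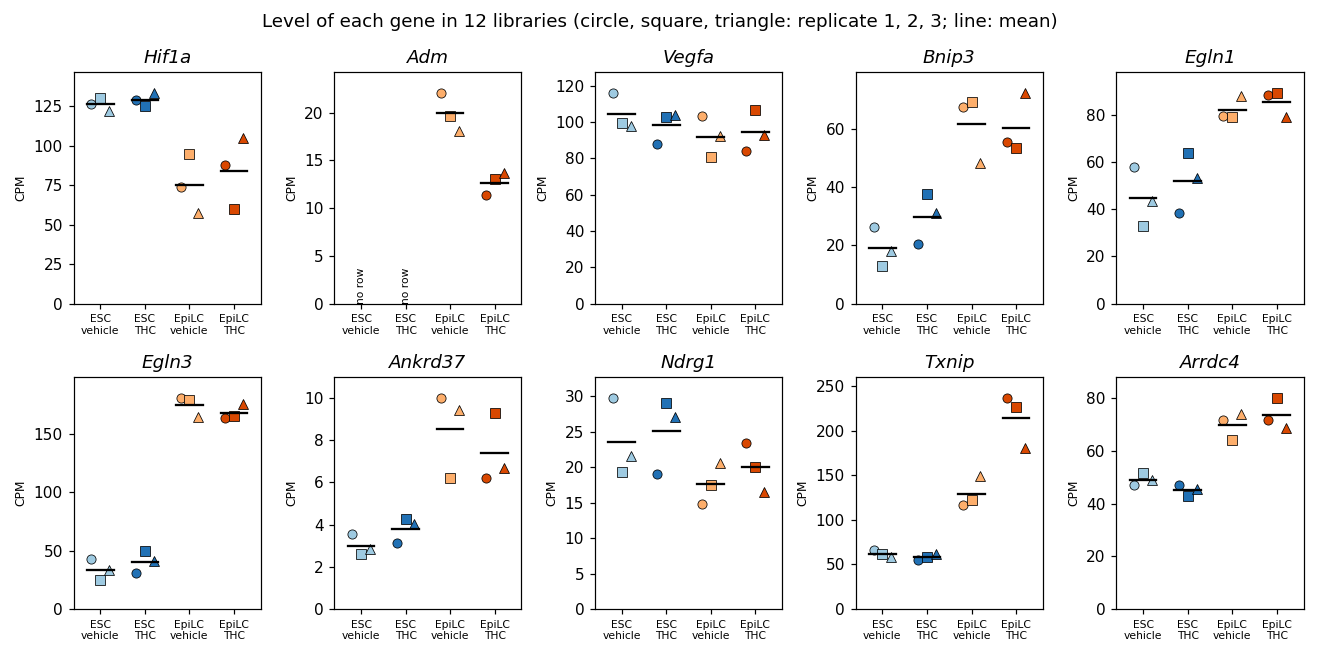
CPM of each of the 10 genes (y axis, linear, from 0) in the 4 groups (x axis), with 1 point per library and the mean as a line. Egln3, Bnip3, Ankrd37, Txnip, Egln1 and Arrdc4 were higher in all EpiLC libraries than in all ESC libraries of the same exposure, Hif1a was lower, and in EpiLCs the THC libraries stood above the vehicle libraries for Txnip and below them for Adm.

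The 9 genes listed in both tables differed in level between the cell types. In vehicle libraries 6 of the 9 were higher in every EpiLC library than in every ESC library, against 37.1% of the 12410 genes in both tables, and 1 of the 9 was lower, against 38.3%. Together 7 of the 9 did not overlap between the cell types, against 75.4% of all genes. With Δ9-THC the same 6 were higher (36.6% of all genes) and the same 1 was lower (37.7%), 7 of 9 in all against 74.3%. The median log2 ratio of EpiLC over ESC was 0.88 over the 9 genes in vehicle and 0.72 with Δ9-THC, where the medians of all genes were 0.0024 and -0.0008. The 2 tables had been adjusted separately and the genes were chosen with these levels known, so no test is given.

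Hif1a (ENSMUSG00000021109, chr12:73901375-73947530) was the gene with the lower level in EpiLCs. Vehicle ESC libraries 1, 2 and 3 had 126, 130 and 122 CPM, and THC ESC libraries had 129, 125 and 133 CPM. Vehicle EpiLCs had 74.1, 94.6 and 57.6 CPM, and THC EpiLCs had 87.6, 60.0 and 105 CPM. The ESC libraries were thus close to each other whichever the exposure, whereas the EpiLC libraries spread widely and all lay below the ESC libraries. The mean was 1.67-fold higher in ESCs than in EpiLCs in vehicle and 1.53-fold higher with Δ9-THC. Within each EpiLC exposure the Hif1a level had the same order of libraries as their total counts, and the part of depth in this spread was not tested.

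The PHD genes had the opposite contrast. Egln3 (ENSMUSG00000035105, chr12:54178981-54203860) stood at 43.0, 25.1 and 33.5 CPM in vehicle ESC libraries 1, 2 and 3, and at 181, 179 and 165 CPM in vehicle EpiLCs. With Δ9-THC the levels were 30.9, 50.0 and 41.3 CPM in ESCs and 164, 165 and 176 CPM in EpiLCs. Egln3 was therefore 5.17-fold higher in EpiLCs in vehicle and 4.13-fold higher with Δ9-THC, and its EpiLC over ESC ratio exceeded that of 98% of all genes in vehicle. Egln1 (ENSMUSG00000031987, chr8:124908587-124949324), the main oxygen sensor of the family, had 57.8, 32.8 and 43.4 CPM in vehicle ESCs and 79.5, 79.0 and 87.7 CPM in vehicle EpiLCs. In THC libraries it had 38.5, 63.7 and 53.2 CPM in ESCs and 88.3, 89.2 and 79.1 CPM in EpiLCs. From the lowest to the highest library of a group, the levels differed 1.62-fold to 1.76-fold in ESCs and 1.08-fold to 1.13-fold in EpiLCs over both genes.

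Among the HIF targets, Bnip3 (ENSMUSG00000078566, chr7:138890836-138909519), a receptor for mitophagy, had 26.3, 12.9 and 18.0 CPM in vehicle ESCs and 20.4, 37.5 and 31.2 CPM in THC ESCs. In EpiLCs it had 67.4, 69.0 and 48.2 CPM in vehicle and 55.3, 53.2 and 72.2 CPM with Δ9-THC. Every EpiLC library was above every ESC library, by 3.23-fold in the vehicle means and 2.03-fold in the THC means. Ankrd37 (ENSMUSG00000050914, chr8:45996902-46005707), an ankyrin-repeat gene, was the least abundant, with 3.55, 2.59 and 2.83 CPM in vehicle ESCs and 9.99, 6.20 and 9.42 CPM in vehicle EpiLCs. Its THC libraries had 3.12, 4.25 and 4.01 CPM in ESCs and 6.20, 9.30 and 6.67 CPM in EpiLCs. On the annotation used here 22.2% of the exonic bases of Bnip3 and 26.4% of those of Ankrd37 are shared with other genes, and counting without strand leaves out reads from bases that the counted annotation gives to 2 genes.

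Vegfa and Ndrg1 did not separate the cell types. Vegfa (ENSMUSG00000023951, chr17:46016993-46032369), the angiogenic growth factor, had 116, 99.6 and 98.0 CPM in vehicle ESCs and 103, 80.5 and 92.5 CPM in vehicle EpiLCs. The THC libraries had 87.9, 103 and 104 CPM in ESCs and 84.2, 107 and 93.1 CPM in EpiLCs. Ndrg1 (ENSMUSG00000005125, chr15:66929318-66969640), a stress-responsive growth regulator, had 29.7, 19.4 and 21.6 CPM in vehicle ESCs and 14.8, 17.5 and 20.6 CPM in vehicle EpiLCs. In THC libraries it had 19.1, 29.1 and 27.1 CPM in ESCs and 23.4, 20.1 and 16.5 CPM in EpiLCs. The ranges of the cell types overlapped in both exposures for each of these genes. Adm (ENSMUSG00000030790, chr7:110627661-110629820), which encodes the vasodilator peptide adrenomedullin, is described with the exposure below.

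The glucose-responsive genes were both higher in EpiLCs. Txnip (ENSMUSG00000038393, chr3:96557957-96561883) had 65.7, 62.1 and 58.2 CPM in vehicle ESC libraries and 117, 123 and 149 CPM in vehicle EpiLCs, a 2.09-fold difference of the means. With Δ9-THC it had 55.2, 58.7 and 62.2 CPM in ESCs and 236, 226 and 181 CPM in EpiLCs, a 3.65-fold difference. Of the exonic bases of Txnip, 19.4% are shared with the antisense gene Gm15441, so the limit given for Bnip3 and Ankrd37 holds here too. Arrdc4 (ENSMUSG00000042659, chr7:68736995-68749241) had 47.2, 51.5 and 48.8 CPM in vehicle ESCs and 71.9, 64.1 and 74.0 CPM in vehicle EpiLCs. With Δ9-THC it had 47.0, 43.0 and 45.4 CPM in ESCs and 71.6, 80.1 and 68.9 CPM in EpiLCs. The Arrdc4 means were 1.42-fold and 1.63-fold higher in EpiLCs, in vehicle and with Δ9-THC.

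Levels of different genes can be ranked only per length of their transcribed sequence. In vehicle ESCs the order on the scale of CPM per kilobase of exon was Vegfa at 24.4 ± 2.3, Hif1a at 21.4 ± 0.72, Txnip at 19.9 ± 1.2, Egln3 at 12.7 ± 3.4, Egln1 at 12.4 ± 3.5, Arrdc4 at 12.2 ± 0.54, Bnip3 at 8.42 ± 3.0, Ndrg1 at 3.57 ± 0.83 and Ankrd37 at 1.94 ± 0.32 (SD, n = 3). The libraries of Hif1a and Txnip overlapped, as did those of Egln3, Egln1 and Arrdc4, and the other neighbours in this order did not. In vehicle EpiLCs the order was Egln3 at 65.7 ± 3.3, Txnip at 41.5 ± 5.6, Bnip3 at 27.2 ± 5.1, Egln1 at 22.8 ± 1.4, Vegfa at 21.5 ± 2.6, Arrdc4 at 17.3 ± 1.3, Hif1a at 12.8 ± 3.1, Adm at 12.3 ± 1.2, Ankrd37 at 5.55 ± 1.3 and Ndrg1 at 2.68 ± 0.44 (SD, n = 3). Here Bnip3 and Egln1, Egln1 and Vegfa, Arrdc4 and Hif1a, and Hif1a and Adm overlapped. Egln3 thus headed the EpiLC levels per length but not the ESC levels, where Vegfa and Hif1a were highest.

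**Figure D2:**
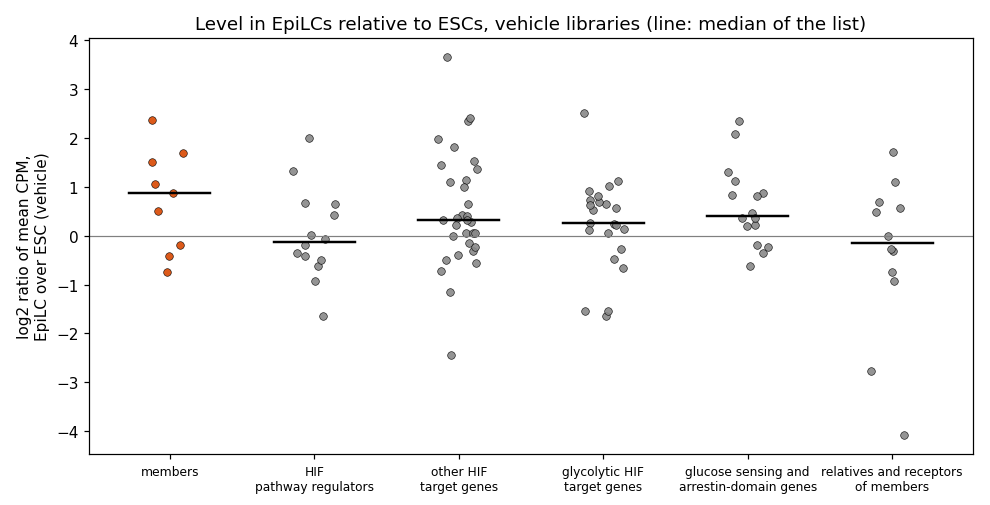
Log2 ratio of the mean CPM, EpiLC over ESC, in vehicle libraries (y axis) for the 9 genes described here and for 5 pathway lists (x axis), with 1 point per gene and the list median as a line. The medians were 0.88 for the 9 genes, 0.31 for other HIF targets, 0.26 for glycolytic HIF targets, 0.41 for glucose-sensing genes, -0.12 for HIF regulators and -0.14 for relatives and receptors.

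The wider pathway was mixed in the same comparison of vehicle libraries. Of 32 other HIF target genes in both tables, 17 were higher in every EpiLC library and 6 lower, against 37.1% higher and 38.3% lower among all genes. The largest ratios were those of Loxl2, a lysyl oxidase-like enzyme of the extracellular matrix, 12.7-fold higher in EpiLCs, and P4ha2, a collagen prolyl hydroxylase, 5.31-fold higher. The lowest were those of Ak4, a mitochondrial adenylate kinase, 5.40-fold lower, and Kdm3a, a histone H3 lysine 9 demethylase, 2.23-fold lower. The ratio of Loxl2 rests on 1.19 ± 0.58 CPM in vehicle ESCs (SD, n = 3). Of 23 glycolytic HIF targets, 14 were higher and 6 lower, beside the same 37.1% and 38.3% of all genes. Slc16a3, which encodes the lactate exporter MCT4, was 5.67-fold higher and Pdk1, which restrains pyruvate dehydrogenase, was 2.17-fold higher, whereas the hexokinase gene Hk1 was 3.11-fold lower and the phosphofructokinase gene Pfkp was 2.91-fold lower.

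Among the genes that control HIF, 4 of the 14 regulators were higher and 7 lower in EpiLCs, counts near the 37.1% and 38.3% of all genes. Arnt2, a partner of the HIF-α subunits, was 3.98-fold higher and Hif3a, an inhibitory relative, 2.51-fold higher. Epas1, which encodes HIF-2α, was 3.11-fold lower and Cited2, which competes for the coactivator p300, was 1.90-fold lower. Of 16 glucose-sensing and arrestin-domain genes, 11 were higher and 3 lower (37.1% and 38.3% of all genes), with Ddit4, an inhibitor of mTORC1, 5.10-fold and Arrdc1 4.24-fold higher, and Pklr, a pyruvate kinase, 1.54-fold and Klf10 1.29-fold lower. Among 12 relatives and receptors, 5 were higher and 6 lower, near those shares of all genes, ranging from the growth factor gene Vegfd, 3.27-fold higher, and Bnip1, 2.14-fold higher, to Vegfc, 6.86-fold lower, and Nrp2, a co-receptor of VEGF and semaphorins, 16.96-fold lower. The ratio of Nrp2 rests on 1.51 ± 0.33 CPM in EpiLCs (SD, n = 3). Those of Vegfc and Pklr rest on 1.88 ± 0.23 and 1.09 ± 0.21 CPM in EpiLCs, and that of Vegfd on 1.55 ± 0.17 CPM in ESCs.

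The comparison of THC with vehicle asked whether the drug moved these genes within a cell type. Its tests took the libraries as independent, although same-numbered vehicle and THC libraries deviated in opposite directions, as given at the end. In ESCs none of the 9 genes passed an adjusted p of 0.05 in edgeR's quasi-likelihood test over 13104 genes, where 6.91% of all genes passed, and DESeq2 called 0 of the 9 as well, where it called 5.79% of all genes. At an unadjusted edgeR p under 0.05 the count was also 0 of 9, against 28.7% of all genes. The vehicle and THC libraries did not overlap for 1 of the 9, against 33% of all genes. The log2(fold-change) had a median of 0.11 over the 9 genes and was 0.004 at the median of all genes.

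In ESCs the fitted log2(fold-change) with its standard error was 0.65 ± 0.30 for Bnip3, 0.36 ± 0.16 for Ankrd37, 0.28 ± 0.23 for Egln3, 0.23 ± 0.24 for Egln1 and 0.11 ± 0.21 for Ndrg1 (n = 3 per group). These 5 genes had the widest spread between replicates, and for each of them vehicle library 1 lay above THC library 1 while vehicle library 2 lay below THC library 2. Leaving out 1 library gave 0.05 to 0.46 for Egln1, 0.11 to 0.50 for Egln3, 0.44 to 0.97 for Bnip3, 0.26 to 0.51 for Ankrd37 and -0.02 to 0.32 for Ndrg1, with the lowest value of each without vehicle or THC library 2 and the highest without vehicle library 1. The remaining genes had smaller values, with 0.05 ± 0.04 for Hif1a, -0.07 ± 0.09 for Vegfa, -0.06 ± 0.06 for Txnip and -0.11 ± 0.05 for Arrdc4. Arrdc4 was the gene whose groups did not overlap: its highest THC library had 47.0 CPM and its lowest vehicle library 47.2 CPM.

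**Figure D3:**
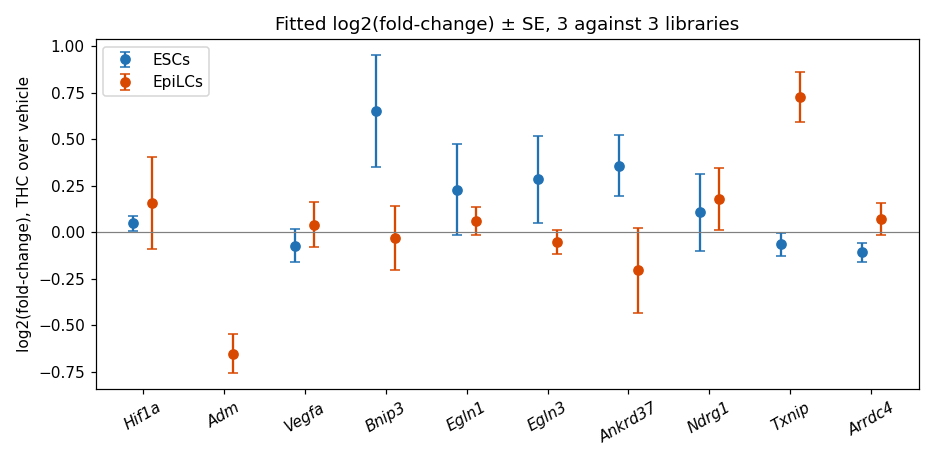
Fitted log2(fold-change) of THC over vehicle (y axis) for each gene (x axis) in ESCs and EpiLCs, with bars of 1 standard error from edgeR (3 against 3 libraries). Txnip at 0.73 and Adm at -0.65 in EpiLCs were the values farthest from 0 relative to their error, and Bnip3 at 0.65 in ESCs had an error of 0.30.

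In EpiLCs the libraries of the exposures separated for 2 of the 10 genes, Txnip and Adm. The 3 vehicle libraries had 117 to 149 CPM of Txnip and the 3 THC libraries 181 to 236 CPM, with means of 130 ± 17 and 214 ± 30 CPM (SD, n = 3) and a log2(fold-change) of 0.73 ± 0.14 (SE). Adm had 22.1, 19.7 and 18.1 CPM in vehicle and 11.4, 13.0 and 13.7 CPM with Δ9-THC, means of 19.9 ± 2.0 and 12.7 ± 1.2 CPM (SD, n = 3), and a log2(fold-change) of -0.65 ± 0.11 (SE). Every THC library was above every vehicle library for Txnip and below it for Adm. Such separation was seen in 21.8% of all genes in EpiLCs, so the count of 2 of 10 is near the background.

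None of the 10 genes passed an adjusted p of 0.05 in edgeR in EpiLCs, where 0% of the 13717 genes passed. At an unadjusted edgeR p under 0.05 the count was 2 of 10, Txnip and Adm, against 15.1% of all genes. DESeq2 called both, with adjusted p of 0.000637 for Txnip and 0.00217 for Adm, where it called 0.634% of all genes, and edgeR gave an adjusted p of 0.144 for each. When the 12 libraries were fitted together, which pools the spread of the groups, the edgeR adjusted p of Txnip was 0.0119 with 3.31% of genes called, and Adm could not be fitted because it has no ESC row. With the replicate number taken as a block, the lowest edgeR adjusted p of any gene in EpiLCs was 0.188. The genes were chosen with these values known, and the p-values describe where they stood among all genes. The summed level of the naive markers was 125 to 150 CPM in vehicle EpiLCs and 137 to 167 CPM in THC EpiLCs, that of the formative markers 1704 to 2039 and 1756 to 2071 CPM, and their part in the Txnip and Adm values was not tested.

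The other 8 genes had small values relative to their error in EpiLCs. The log2(fold-change) was 0.18 ± 0.17 for Ndrg1, 0.16 ± 0.25 for Hif1a, 0.07 ± 0.08 for Arrdc4, 0.06 ± 0.07 for Egln1, 0.04 ± 0.12 for Vegfa, -0.03 ± 0.17 for Bnip3, -0.05 ± 0.06 for Egln3 and -0.20 ± 0.23 for Ankrd37 (SE, n = 3 per group). Txnip and Arrdc4, which answer to the same glucose-sensing factors, therefore had unlike values in EpiLCs, 0.73 ± 0.14 and 0.07 ± 0.08, a difference that was not tested. The receptor subunits for adrenomedullin were listed at low levels in vehicle EpiLCs: Calcrl at 1.28 ± 0.12 CPM, Ramp2 at 4.78 ± 0.61 CPM and Ramp3 at 8.74 ± 1.1 CPM (SD, n = 3). In edgeR their adjusted p for THC against vehicle was 0.785, 0.562 and 0.459, and the Ramp3 libraries did not overlap, with 7.37 ± 0.99 CPM with Δ9-THC. These receptor genes were named after their values were seen.

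The difference of the drug response between cell types was fitted directly, as the EpiLC minus the ESC log2(fold-change) over the 12410 shared genes. For Txnip it was 0.81 ± 0.16 (SE), with an edgeR adjusted p of 0.0710 and a DESeq2 adjusted p of 0.00191. None of the 9 genes passed in edgeR, where 0.0322% of all genes did, and 1 of 9 had an unadjusted edgeR p under 0.05, against 13.7% of all genes. The next values were -0.67 ± 0.36 for Bnip3, -0.55 ± 0.31 for Ankrd37 and -0.32 ± 0.25 for Egln3, each within 2 of its standard errors of 0. With the replicate number taken as a block, no gene passed, Txnip included, and the lowest edgeR adjusted p of any gene was 0.999. The Txnip difference itself ranged from 0.73 to 0.92 over all fits run.

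The pathway lists, drawn from general knowledge of HIF and glucose sensing, had few calls. In ESCs edgeR called 1 of 14 HIF regulators, 1 of 32 other HIF targets, 1 of 23 glycolytic targets, 1 of 17 glucose-sensing genes and 0 of 13 relatives and receptors, each to be read against the 6.91% of all genes. Cul2, the scaffold of the VHL ubiquitin ligase, rose from 201 ± 2.1 to 221 ± 2.2 CPM (log2(fold-change) 0.15, adjusted p 0.0301). Kdm3a rose from 240 ± 5.3 to 263 ± 5.8 CPM (0.15, adjusted p 0.0399). Gys1, muscle glycogen synthase, fell from 115 ± 2.5 to 99.1 ± 2.2 CPM (-0.20, adjusted p 0.0301), and Txnrd2, the mitochondrial thioredoxin reductase, fell from 7.51 ± 0.12 to 6.05 ± 0.089 CPM (-0.30, adjusted p 0.0368). DESeq2 also called Cul2, Kdm3a and Gys1 and not Txnrd2, whose DESeq2 adjusted p was 0.188, and it added Pdk1 and Arrdc3. Leaving out any 1 of the 6 ESC libraries lost the 4 edgeR calls, with adjusted p from 0.0721 to 0.142, while the log2(fold-change) stayed at 0.14 to 0.16 for Cul2, 0.13 to 0.16 for Kdm3a, -0.22 to -0.19 for Gys1 and -0.31 to -0.28 for Txnrd2. Taking the replicate number as a block also lost the 4 calls. The edgeR adjusted p was then 0.429 for Cul2, 0.429 for Kdm3a, 0.414 for Gys1 and 0.482 for Txnrd2. All 4 calls were lost when each library's trend with GC content and length was fitted, with adjusted p of 0.863 for Cul2, 0.262 for Kdm3a, 0.166 for Gys1 and 0.165 for Txnrd2, and log2(fold-change) values of 0.01, 0.09, -0.13 and -0.22 in that order.

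In EpiLCs edgeR called 0 genes of each of the 5 lists and so did DESeq2. At an unadjusted edgeR p under 0.05 there were 1 of 14 regulators, 7 of 34 other HIF targets, 5 of 23 glycolytic targets, 4 of 16 glucose-sensing genes and 0 of 17 relatives and receptors, against 15.1% of all genes. The median log2(fold-change) was -0.04 for the other HIF targets, -0.05 for the glycolytic targets and 0.003 for all genes. Of the other HIF targets 19 of 34 were below 0, and of the glycolytic targets 16 of 23. DESeq2, which called Adm and Txnip, thus called none of the other HIF targets or glucose-sensing genes listed.

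Within ESCs some of the genes varied together between replicate libraries. Bnip3, Egln1, Egln3, Ankrd37 and Ndrg1 had the same order of libraries, with 1 above 3 above 2 in vehicle and 2 above 3 above 1 with Δ9-THC, which is 5 of 9 genes against 17.7% of all genes in the ESC table. All 5 also varied at least 1.5-fold from the lowest to the highest of the 6 libraries, against 2.73% of all genes with that order and that spread. From the lowest to the highest library the level differed 2.90-fold for Bnip3, which is more than for 99.4% of all genes, 2.00-fold for Egln3, 1.94-fold for Egln1, 1.64-fold for Ankrd37 and 1.56-fold for Ndrg1. The corresponding spread was 1.32-fold for Vegfa, 1.20-fold for Arrdc4, 1.19-fold for Txnip and 1.09-fold for Hif1a. The order was noticed in these values and is given without a test.

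**Figure D4:**
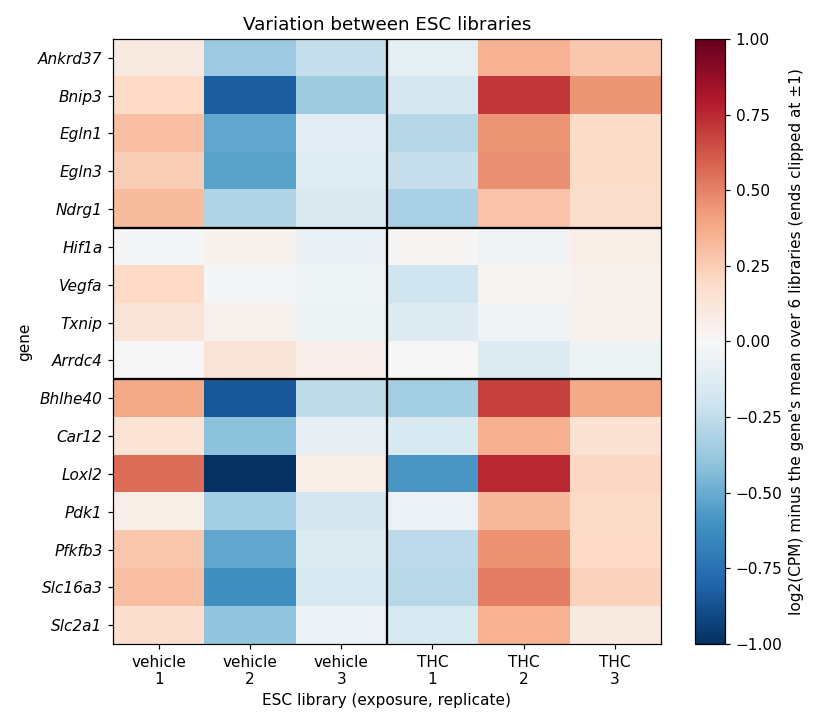
Log2 CPM of each gene minus its mean over the 6 ESC libraries (colour, red above and blue below the mean, ends at ±1) for the 5 genes sharing the library order (top), the 4 other genes described here (middle) and 7 HIF target genes with the same order and at least 1.5-fold spread (bottom). In the top and bottom blocks vehicle library 2 was the lowest and THC library 2 the highest, except for Ndrg1, whose lowest was THC library 1 and highest vehicle library 1, while Hif1a varied 1.09-fold.

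Other HIF targets ran in the same order. It was held by 19 of the 32 other HIF targets and 15 of the 23 glycolytic targets in the ESC table, against 17.7% of all genes. The counts were nearer that share for the regulators (4 of 14), the glucose-sensing genes (4 of 17) and the relatives and receptors (3 of 13). Of these glucose-sensing genes, Ddit4 and Slc2a1 are also on the HIF target lists and were counted there too. None of the 8 naive markers had the order. Of the other HIF targets 4 of 32, and of the glycolytic targets 4 of 23, had the order and also varied at least 1.5-fold, against 2.73% of all genes. These genes, named after their values were seen, included Bhlhe40, Car12, Loxl2, Pdk1, Pfkfb3, Slc16a3 and Slc2a1. Bhlhe40, a transcriptional repressor, had 105, 45.1 and 68.1 CPM in vehicle libraries 1, 2 and 3 and 64.2, 130 and 105 CPM in THC libraries 1, 2 and 3. Slc16a3 had 61.3, 32.6 and 44.9 CPM and then 41.1, 70.9 and 58.3 CPM. For both genes vehicle library 1 lay among the THC libraries and THC library 1 among the vehicle libraries.

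The vehicle order and the THC order are not independent observations. Of the 2367 genes of the ESC table with vehicle order 1 above 3 above 2, 97.8% had the THC order 2 above 3 above 1. The library totals were 32096698, 26912806 and 28078474 for vehicle libraries 1, 2 and 3 and 24295632, 30529527 and 24103915 for THC libraries 1, 2 and 3, so the vehicle totals had the order of the 5 genes, and THC library 2 was the deepest of its group. Removing each library's trend with GC content and length left the order in the same 5 of the 9 genes, in 18 of the 19 other HIF targets and in all 15 of the glycolytic targets that had it. The part of depth and of the adjustment in the order was not tested.

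The gene most like each of 8 of the genes over the 12 libraries was found among 12009 genes by Pearson's r of log2 CPM, as a description, since the 12 points form 2 cell types and mirrored replicates. Egln3 was most like Slc16a3 (r = 0.999) and Egln1 most like the aldolase gene Aldoc (r = 0.991), both from the glycolytic list. Txnip was most like Arid1a (r = 0.991), a subunit of the BAF chromatin remodelling complex, Hif1a like the mitotic kinesin gene Kif11 (r = 0.996) and Arrdc4 like Psrc1 (r = 0.996). Bnip3 was most like Fam3c (r = 0.981), Ankrd37 like Eny2 (r = 0.991) and Ndrg1 like As3mt (r = 0.963).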

How the data were processed

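Total RNA of ESCs and EpiLCs was extracted and poly(A) libraries were sequenced by the authors. Their methods name a KAPA kit or an ABClonal kit for the libraries, without assigning either to samples. According to their methods and processing notes, reads were demultiplexed with bcl2fastq 2.19.1.403, checked with FastQC, aligned with STAR keeping unique hits, and counted over exons without strand with HTSeq; the genome is named both mm10 and GRCm39. The deposited values are whole-number counts per gene that the authors filtered for low counts and adjusted with ComBat-seq, separately for each cell type, and the batches are not given in the sources used here. Such an adjustment can alter the spread between replicates and with it the p-values.

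From these counts, edgeR 4.0.16 (R 4.3.3) quasi-likelihood tests with TMM scaling were run on genes with a total over 10, 3 libraries against 3, with Benjamini-Hochberg adjustment over all genes and a threshold of 0.05. The difference between cell types was a contrast in a 4-group fit of the 12410 shared genes. DESeq2 1.42.0, the tool of the authors, was an alternative, as were other scaling, filters, GC and length offsets, a replicate block, a 12-library fit and leaving out each library. Levels are CPM with a TMM scaling over the 12 libraries, and exon lengths and positions come from GENCODE M21 (GRCm38), matched by Ensembl identifier. The fit was tested beforehand on simulated independent counts. These had no batch adjustment and no tie between same-numbered libraries, so the test does not cover those features of the data. The 10 genes and the pathway lists were chosen with earlier results of these data known. Ddit4 is listed among other HIF targets and glucose-sensing genes, Slc2a1 among glycolytic targets and glucose-sensing genes, and both count in each list. Named beside the 10 genes are list genes called in either cell type, the 2 highest and 2 lowest list genes by EpiLC over ESC ratio, and the gene most like each of the 10 with a mean of at least 1 CPM in each cell type; some genes that these rules name are not reported here. Replicates are labelled as biological, with no note of shared cultures.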

Additional observations from a re-analysis of the deposited data

How the results depend on the processing

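The directions of Txnip and Adm in EpiLCs held under every alternative run: the log2(fold-change) of Txnip ranged from 0.64 to 0.85 and that of Adm from -0.72 to -0.58, with adjusted p from 0.000637 to 1 and from 0.00217 to 1. The counts of genes called depended on the fit. In ESCs edgeR called 906 genes, against 759 with DESeq2, 31 in the 12-library fit, 2 with GC and length offsets, and 0 to 1 when a library was left out. In EpiLCs it called 0, against 87 with DESeq2 and 411 in the 12-library fit. The difference between cell types was called for 4 genes, 133 with DESeq2 and 0 (0 to 0) when a library was left out. The fits with a library left out also had fewer samples, and the cause of the different counts was not tested for any fit. Same-numbered vehicle and THC libraries deviated in opposite directions (r from -0.99 to -0.98 in ESCs and -0.99 to -0.98 in EpiLCs), so the number ties the libraries in mirror image, which was not taken as a pairing. Taking that number as a block left 5 calls in ESCs, 3 with GC and length offsets and the replicate block, 0 in EpiLCs and 0 for the difference. With the block 11.1% of genes had an unadjusted edgeR p under 0.05 in ESCs and 2.12% in EpiLCs, against 28.7% and 15.1% without it. Unless the block is named, the p-values and shares given here come from fits without it, which treat the tied libraries as independent.

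Only small values changed sign. Hif1a in ESCs was -0.10 with GC and length offsets and -0.10 with the block added. Leaving out 1 library gave ranges that crossed 0 in ESCs for Vegfa (-0.12 to 0.0108) and Ndrg1 (-0.0166 to 0.32), in EpiLCs for Hif1a (-0.0398 to 0.36), Vegfa (-0.065 to 0.13), Bnip3 (-0.19 to 0.0614) and Arrdc4 (-0.0062 to 0.12), for the difference for Hif1a (-0.063 to 0.32), Egln1 (-0.39 to 0.0238) and Ndrg1 (-0.12 to 0.21), and for the THC EpiLC over ESC log2 ratio of Vegfa (-0.15 to 0.0232). The 6 genes above all ESC libraries in EpiLCs numbered 6 under every scaling and with any library left out. Depth limits mainly Ankrd37, at 71 to 288 counts a library.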
